A study of Mus musculus with 3 samples.

Results

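The actin cytoskeleton is described here through 10 genes that blood cells use, followed in polysomal RNA of mouse bone marrow cells. The genes were chosen by name, as cytoplasmic actins and actin-binding proteins: Actb, Actg1, Tmsb4x, Pfn1, Cfl1, Coro1a, Lcp1, Arpc1b, Myh9 and Flna. Earlier results of these data were known when they were chosen. All 10 were found among the 48795 gene identifiers of the count tables. The samples were 2 libraries from wild-type mice, called WT 1 and WT 2, and 1 library of the genotype Mat KO. In all of them, marrow cells had been incubated with cycloheximide, which stalls ribosomes on mRNA, before polysomes were sedimented through sucrose. The series concerns small nucleolar RNAs of the imprinted Dlk1-Gtl2 region and their part in translation. The question put here is how the polysomal counts of the actin genes stood in Mat KO and wild-type marrow. Whether the counts came from blood cells was not tested. The neutrophil and erythroid markers given below had 0 counts in WT 2 and in Mat KO. Some other blood-cell marker lists had a few counts in Mat KO. No source used here gives the allele behind the name Mat KO, the strain, the age, the number of mice per library or the gradient fractions taken.

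Cytoplasmic actin exists as monomers and as filaments, and a blood cell moves, spreads, engulfs and divides by turning one into the other. Thymosin beta-4 and profilin hold and deliver monomers, cofilin severs old filaments, the Arp2/3 complex starts branches, coronin and plastin shape and bundle filaments, and filamin and nonmuscle myosin link and pull on the network. Leukocytes depend on this machinery for migration and phagocytosis, and megakaryocytes depend on nonmuscle myosin and filamin to form platelets.

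The cytoplasmic actin genes are close copies, which bears on how their reads can be counted. The opening of their coding sequences and their longest identical run are therefore shown. In the GENCODE M21 transcripts, the coding sequences of Actb and Actg1 were both 1128 bases long and identical at 88.7% of bases, with 128 bases differing. The opening 60 coding bases from the start codon held 9 of these differences, which are printed in capitals:

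Actb: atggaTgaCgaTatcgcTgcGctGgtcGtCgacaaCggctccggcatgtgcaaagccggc

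Actg1: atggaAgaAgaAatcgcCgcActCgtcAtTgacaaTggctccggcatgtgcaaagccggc

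The longest run without a difference covered 62 bases, from coding base 889 to 950 of both genes, and a read that lies within it cannot be given to either gene by its sequence:

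Actb and Actg1: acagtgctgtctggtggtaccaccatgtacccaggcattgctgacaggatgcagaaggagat

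Windows of 50 bases were compared exactly between each gene's principal transcript and all annotated transcripts of other genes, on both strands. For Actg1, 56.7% of windows occurred in transcripts of 22 other genes, of which 12 were pseudogenes. Among the 22, the miRNA gene Gm23419, with 35 shared windows, overlaps the exons of Actg1 on the same strand. With Mir6935 it covers 5.53% of the exon length of Actg1. For Actb the share was 14.2%, in 18 other genes, of which 14 were pseudogenes. No window of Tmsb4x, Pfn1, Coro1a or Flna occurred in another gene, and 1.12% of those of Myh9 did. Windows of Arpc1b and Cfl1 were shared at 42.2% and 23.0%, led by the genes Pdap1 and Snx32 that overlap them on the opposite strand, and Lcp1 shared 14.4%. Reads aligned to several places were not counted to genes, so the counts of Actg1 may leave out more reads than those of Pfn1 or Tmsb4x. How many was not tested.

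The libraries were shallow and unlike each other. WT 1, WT 2 and the Mat KO library held 64547, 239429 and 125871 gene-assigned counts. The 4 features mt-Rnr1, mt-Rnr2, Lars2 and CT010467.1 together took 67.6%, 99.0% and 88.5% of them. A further 33.5%, 74.3% and 66.1% of the reads recorded were set aside as ambiguous between genes. Outside the 4 features, 20903, 2301 and 14430 counts remained, and all shares below are given per 10000 of these. A gene at 0 is given a limit of 3 counts, which allows shares of up to 1.44, 13.0 and 2.08 for WT 1, WT 2 and Mat KO. Intervals are 95% Wilson intervals and, like the limits, cover counting error only, since the reads carry no molecular identifiers. A count was found for 4206, 378 and 572 nuclear protein-coding genes. Of the locus in the series title, Meg3 had 28, 0 and 0 counts and Rian 1, 0 and 0, so the genotype label cannot be checked from these tables, WT 2 being at 0 as well. Of 14 neutrophil and 10 erythroid markers, 13 and 8 had a count in WT 1, with 534 and 426 counts in all, and both lists stood at 0 counts in WT 2 and in Mat KO. Stem and progenitor markers had 11, 0 and 12 counts, from 5, 0 and 1 of 9 genes. B lymphoid and plasma cell markers had 98, 0 and 1 counts. T and NK cell markers had 1, 0 and 1, and monocyte and macrophage markers 80, 0 and 0. The 10 stromal, endothelial and bone markers, which marrow can also hold, had 455, 21 and 10 counts, from 8, 3 and 1 genes. Of other tissues, 12 pancreatic acinar markers had 1, 14 and 776 counts, and 11 hepatocyte markers had 534, 26 and 0. The labels do not say whether the WT libraries came from separate mice, so their spread may be technical, and there is no second Mat KO library.

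Actb, like Flna below, was found in every library at shares that overlapped. Actb (ENSMUSG00000029580, GRCm38 chr5:142903115-142906754, minus strand), which encodes beta-actin, the main cytoplasmic actin, had 44, 7 and 30 counts in WT 1, WT 2 and Mat KO. These were shares of 21.0 (15.7 to 28.2), 30.4 (14.7 to 62.7) and 20.8 (14.6 to 29.7). The Mat KO share was 0.988 times that of WT 1, with an exact counting interval of 0.600 to 1.61, and 0.683 times that of WT 2 (0.294 to 1.84). All 3 intervals overlapped. In bulk RNA, fewer cells of a type and less RNA per cell cannot be told apart. By raw counts among the nuclear coding genes, Lars2 left out, Actb ranked 24 in WT 1, 37 in WT 2 (tied with 5 others) and 39 in the Mat KO library.

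Actg1 (ENSMUSG00000062825, chr11:120345690-120348542, minus strand), which encodes gamma-actin, had 5, 7 and 0 counts. Its share was 2.39 (1.02 to 5.60) in WT 1 and 30.4 (14.7 to 62.7) in WT 2, a 12.7-fold difference between wild-type libraries (3.47 to 50.8). The 0 of the Mat KO library, set at its limit of 3 counts, lay at least 14.6-fold below the observed share of WT 2 and at least 1.15-fold below that of WT 1. Such bounds, here and below, do not allow for the counting error of the library that has counts, and that error is wide for the 7 counts of WT 2. The pseudogenes that share windows with Actg1 and are in the tables, 9 of 12, had 0, 1 and 0 counts in all.

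The monomer-binding genes Pfn1 and Tmsb4x were among the most counted of WT 1, had like shares in WT 2 and had 1 count between them in the Mat KO library. Pfn1 (ENSMUSG00000018293, chr11:70651850-70654644, minus strand), the gene of profilin, which loads actin monomers with ATP and feeds them to growing ends, had 57, 6 and 0 counts. Its share was 27.3 (21.1 to 35.3) in WT 1 and 26.1 (12.0 to 56.8) in WT 2, a ratio of 0.956 between them (0.337 to 2.21). At the share of WT 1 the Mat KO library would have held 39.3 counts. Its 0 lay at least 13.1-fold below WT 1 and 12.5-fold below WT 2.

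Tmsb4x (ENSMUSG00000049775, chrX:167207093-167209315, minus strand), the gene of thymosin beta-4, which sequesters monomers, had 40, 4 and 1 counts. The shares were 19.1 (14.1 to 26.0), 17.4 (6.76 to 44.6) and 0.693 (0.122 to 3.92). WT 1 lay 27.6-fold above the Mat KO library, with a wide counting interval of 4.68 to 1118 that reflects its single count. WT 2 lay 25.1-fold above (2.48 to 1235). For Pfn1 and Tmsb4x the interval of the Mat KO library thus lay below those of both wild-type libraries, if each read is an independent molecule. Most genes counted in WT 1 were missing from the Mat KO library. Of 1181 nuclear protein-coding genes with at least 5 counts in WT 1, 112 (9.48%) had any count there. These were not matched for counts: 17 had more than Pfn1 in WT 1 and 29 more than Tmsb4x. Nothing particular to Pfn1 and Tmsb4x can be read from their low counts.

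Cfl1 (ENSMUSG00000056201, chr19:5490455-5495201, plus strand), which encodes cofilin, had 18, 0 and 0 counts. The share in WT 1 was 8.61 (5.45 to 13.6), at least 4.14-fold above the Mat KO library, while 0 counts in WT 2 allowed up to 13.0. No difference between WT 2 and either other library could be seen at that depth. On the opposite strand, the exons of Snx32 cover 16.5% of the exon length of Cfl1. No source used here gives the strand setting of the counting, so reads from that stretch may be missing.

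**Figure D1:**
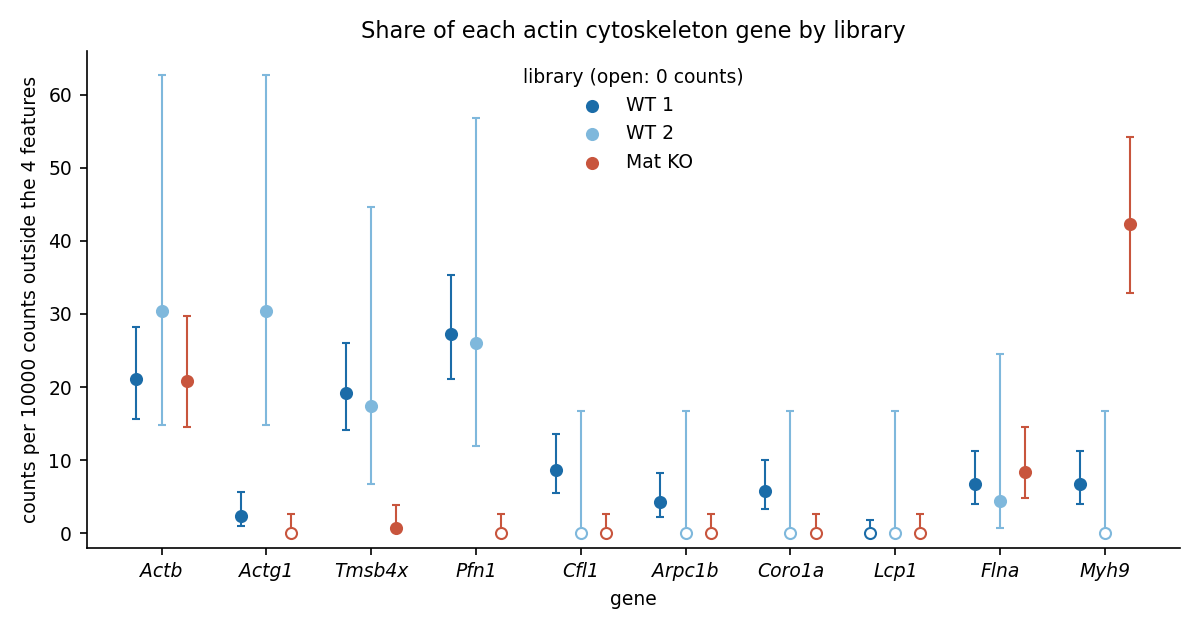
Share of each of the 10 genes by library, per 10000 counts with the 4 features left out, ordered by role. Points are single libraries, open points mark 0 counts, and bars are 95% Wilson intervals of counting error. Actb lies at 21.0, 30.4 and 20.8, Pfn1 and Tmsb4x are near 0 in the Mat KO library alone, and Myh9 is highest there at 42.3.

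Of the branching and bundling genes of the set, Coro1a and Arpc1b were counted in WT 1 alone. Coro1a (ENSMUSG00000030707, chr7:126699773-126707787, minus strand), the gene of the leukocyte coronin, had 12, 0 and 0 counts. Arpc1b (ENSMUSG00000029622, chr5:145114215-145130705, plus strand), which encodes the blood-cell form of an Arp2/3 complex subunit, had 9, 0 and 0. Their shares in WT 1 were 5.74 (3.28 to 10.0) and 4.31 (2.27 to 8.18), at least 2.76-fold and 2.07-fold above the Mat KO library. WT 2 would have held 1.32 and 0.991 counts at those shares, so its 0 says little. Lcp1 (ENSMUSG00000021998, chr14:75131101-75230842, plus strand), the gene of L-plastin, a filament bundler of leukocytes, had 0 counts in every library.

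The motor gene Myh9 had its highest share in the Mat KO library, and the cross-linker gene Flna did not differ beyond counting error. Myh9 (ENSMUSG00000022443, chr15:77760587-77842175, minus strand), the heavy chain of nonmuscle myosin IIA, had 14, 0 and 61 counts. In the Mat KO library 10 nuclear coding genes, Lars2 left out, had more. Its share was 6.70 (3.99 to 11.2) in WT 1, and that of the Mat KO library was 42.3 (32.9 to 54.3), 6.31-fold higher (3.49 to 12.2). Against the 0 of WT 2 the Mat KO share was at least 3.24-fold higher. Of the 437 genes that passed the filter on low counts, 85 had counts in the Mat KO library alone. Nothing particular to Myh9 can be read from its high counts there. Flna (ENSMUSG00000031328, chrX:74223461-74249820, minus strand), which encodes filamin A, a cross-linker that ties filaments to membrane receptors, had 14, 1 and 12 counts. Its shares of 6.70 (3.99 to 11.2), 4.35 (0.767 to 24.6) and 8.32 (4.76 to 14.5) overlapped in all libraries.

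Levels were compared between genes per kilobase of the principal transcript. In WT 1, Pfn1 had 31.7 counts per 10000 per kilobase (24.5 to 41.0) and Tmsb4x 24.9 (18.3 to 33.9), with overlapping intervals. Actb followed at 11.0 (8.17 to 14.7) and Cfl1 at 3.66 (2.31 to 5.78), each apart from the gene above it. Coro1a at 3.29, Arpc1b at 1.39, Actg1 at 1.23, Myh9 at 0.901 and Flna at 0.803 each overlapped their neighbour in the order. WT 2 had the same leading genes, Pfn1 at 30.3, Tmsb4x at 22.6 and Actb at 15.8, with Actg1 beside Actb at 15.6. In the Mat KO library the order was Actb at 10.8, Myh9 at 5.69, Flna at 0.997 and Tmsb4x at 0.902. The principal transcripts of Cfl1 and Arpc1b are long forms of 2354 and 3105 bases, and shorter annotated forms would raise their levels.

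Summed over the 10 genes, the highest library, WT 2, lay 1.51-fold above the lowest, Mat KO, although the genes that made up most of the sum differed. The set had 213, 25 and 104 counts. The summed shares were 102 (89.2 to 116), 109 (73.7 to 160) and 72.1 (59.5 to 87.2). The Mat KO sum was 0.707 times that of WT 1 (0.554 to 0.898) and 0.663 times that of WT 2 (0.425 to 1.07). Myh9 alone carried 58.7% of the Mat KO sum, and without the most counted gene of each library the sums were 74.6, 78.2 and 29.8. With the total limited to nuclear coding genes, Lars2 left out, the sums per 10000 were 115 (100.3 to 131), 205 (139 to 301) and 129.7 (107 to 157), and the Mat KO sum was 1.13 times that of WT 1 (0.886 to 1.44). Mat KO thus lay below WT 1 on one scale and not on the other. Per 10000 gene-assigned counts, rRNA features included, the sums were 33.0, 1.04 and 8.26, and the WT libraries lay further from each other than either did from the Mat KO library.

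**Figure D2:**
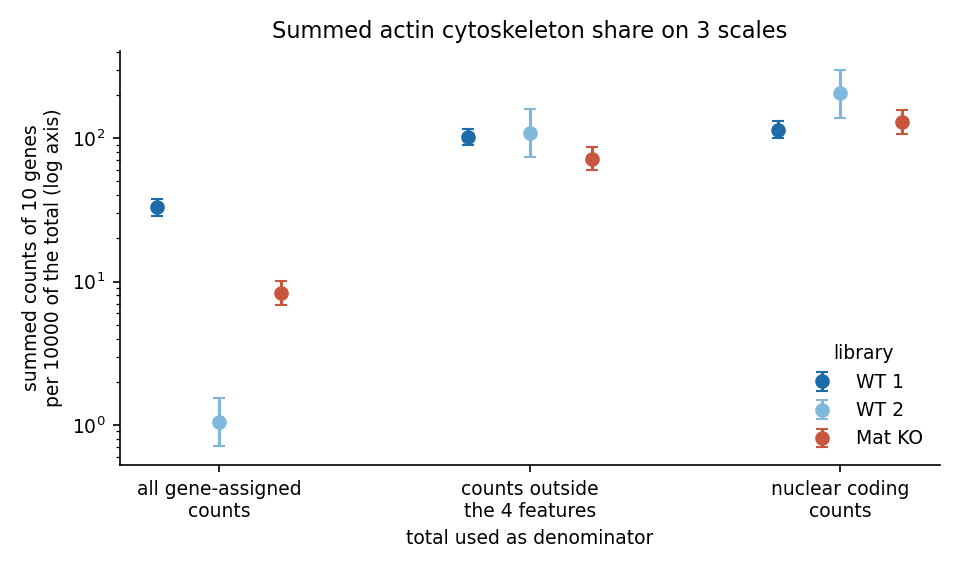
Summed counts of the 10 genes per 10000 counts, on a log axis, for 3 choices of the total. Points are single libraries and bars are 95% Wilson intervals. With the 4 features left out the sums are 102, 109 and 72.1, and with all gene-assigned counts as the total they spread from 1.04 to 33.0.

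The make-up of the sum set the Mat KO library apart from both wild-type libraries in some roles. In the share of the actins it lay near WT 1. The monomer-binding and severing genes Tmsb4x, Pfn1 and Cfl1 made up 54.0% (47.3 to 60.6), 40.0% (23.4 to 59.3) and 0.962% (0.170 to 5.25) of the set's counts. Flna and Myh9 made up 13.1% (9.25 to 18.3), 4.00% (0.710 to 19.5) and 70.2% (60.8 to 78.1). The actins Actb and Actg1 made up 23.0% (17.9 to 29.1), 56.0% (37.1 to 73.3) and 28.8% (21.0 to 38.2). The grouping by role was made after the values were seen, and 1 Mat KO library gives no spread for these shares.

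**Figure D3:**
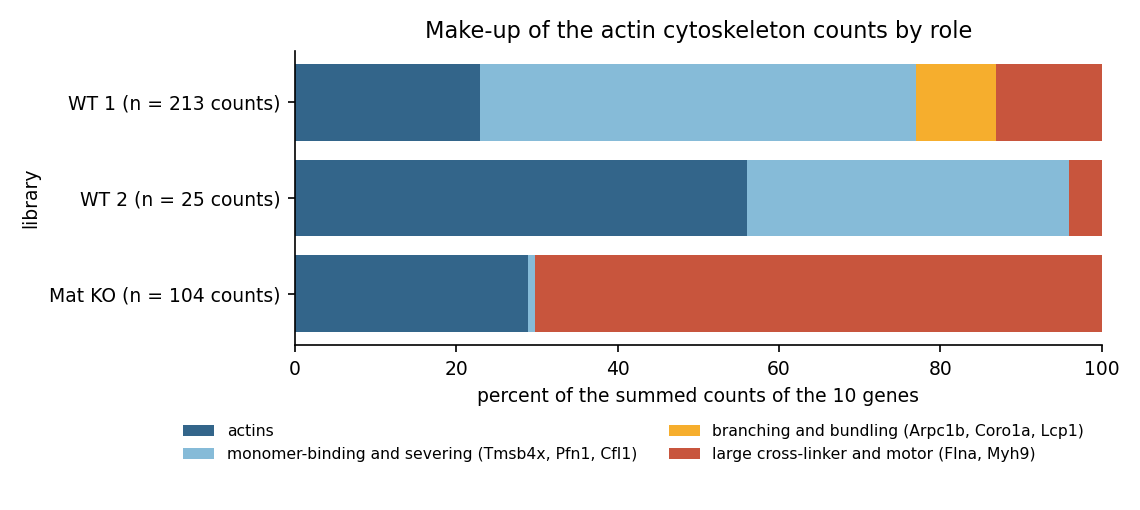
Percent of the summed counts of the 10 genes that came from each role, by library (213, 25 and 104 counts). Tmsb4x, Pfn1 and Cfl1 give 54.0% and 40.0% in the WT libraries and 0.962% in the Mat KO library, where Flna and Myh9 give 70.2%.

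No gene of the set passed the test across genes. Of the 10 genes, 6 passed the filter on low counts, and 0 of them were called in edgeR's quasi-likelihood test, beside 0 of 437 genes called in all (0.0%). At an unadjusted p under 0.05, edgeR had 0 genes and DESeq2 had 7, and neither had any of the 6. In edgeR the log2 fold change of Mat KO over WT was -4.68 for Pfn1 (standard error 4.64), -3.85 for Tmsb4x (5.88), -2.94 for Cfl1 (4.10), -1.28 for Actb (5.95), -0.71 for Flna (6.28) and 1.46 for Myh9 (6.0). Their adjusted p in edgeR ran from 0.729 to 0.990. Under the alternatives with a test it ran from 0.498 to 0.997. The design left 1 residual degree of freedom, so the test relied mainly on a spread shared across genes (common dispersion 3.88). It took the Mat KO library to vary as much as the WT libraries did. The standard errors were derived from each fold change and its test statistic, so they add nothing to the p-values. The median log2 fold change was -2.11 over the 6 genes and -0.27 over all 437. Pfn1, Tmsb4x and Cfl1 passed the filter through WT 1 alone, which made values below 0 likely, and the median is no support for a difference. The choice of scaling moved the median of all tested genes between -0.27 and 0.97. Relative to it, Myh9 lay at 1.72 to 2.06, Actb at -1.25 to -0.86 and Flna at -0.52 to -0.44 under the 4 scalings, although the fitted value of Flna itself ran from -0.71 to 0.45 and was above 0 under 2 of them.

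**Figure D4:**
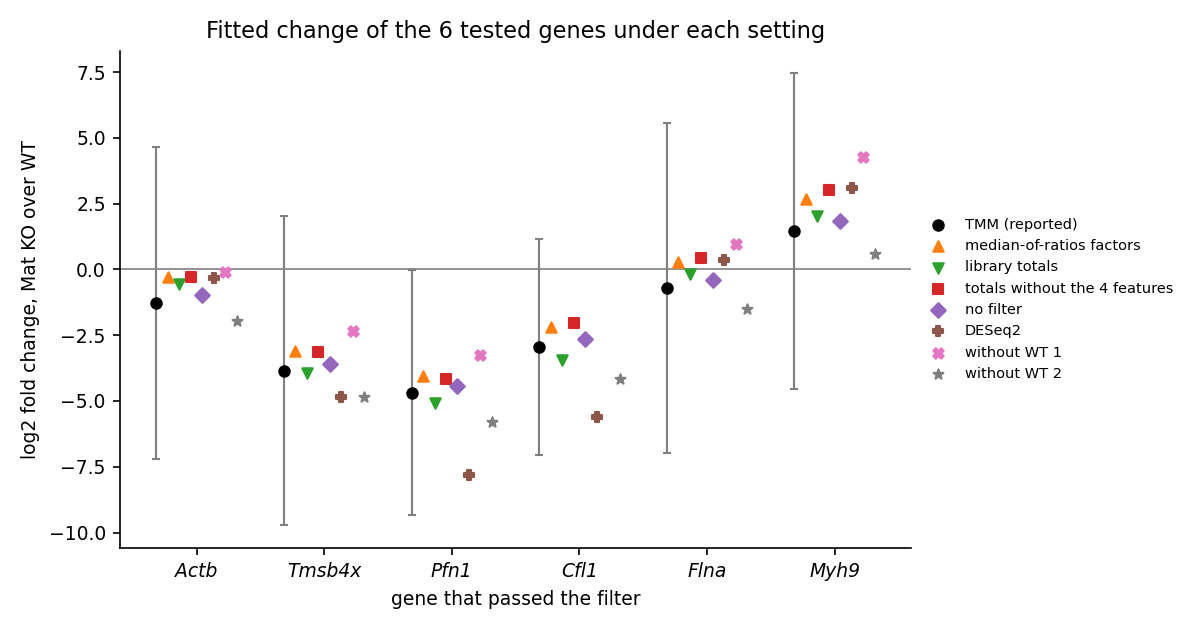
Fitted log2 fold change of Mat KO over WT for the 6 genes that passed the filter, under the reported fit (black) and 7 alternatives. Bars show the standard error of the reported fit, derived from its test statistic. Myh9 lies above 0 and Pfn1, Tmsb4x, Cfl1 and Actb below 0 under each setting that gave a value, Flna crosses 0, and the standard errors run from 4.10 to 6.28.

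Other genes of the actin machinery had lower summed shares in WT 2 and in Mat KO than in WT 1. Outside the 10, 139 further actin genes were listed by function. In WT 1, 88 had a count, with a summed share of 231 (211 to 252). In WT 2 there were 8, with 47.8 (26.7 to 85.4), and in the Mat KO library 11, with 128 (111 to 148). Per 10000 nuclear coding counts, Lars2 left out, the sums were 259, 90.2 and 231, so Mat KO lay nearer to WT 1 on that scale. In these lists 13 genes were tested and 0 called.

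The other Arp2/3 subunits, 8 of 9 with a count in WT 1, had 52, 4 and 0 counts in all. Arpc2, which with Arpc4 forms the core of the complex, had 9, 4 and 0, and Actr2, an actin-related subunit, 11, 0 and 0. The list's share was 24.9 (19.0 to 32.6) in WT 1 and 17.4 (6.76 to 44.6) in WT 2. The nucleation promoters and formins had 56, 1 and 6 counts, from 14, 1 and 1 of 25 genes. Wasl, the gene of N-WASP, gave all 6 of the Mat KO library and had 0 in both WT libraries, and the formin gene Diaph1 had 1, 1 and 0. The hematopoietic cortactin-like gene Hcls1 and the WAVE gene Wasf3 had 8, 0 and 0 each.

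Monomer-binding and severing genes other than the members had 47, 2 and 0 counts, from 10, 2 and 0 of 19 genes. Gsn, which encodes the severing protein gelsolin, led with 21, 0 and 0, and the cyclase-associated protein gene Cap1 had 6, 0 and 0. Tmsb10, a paralog of Tmsb4x, had 1, 1 and 0, and the profilin paralog Pfn2 had 0, 1 and 0. Capping, bundling and cross-linking genes had 76, 2 and 26 counts. All 26 of the Mat KO library came from Sptan1, the alpha chain of nonerythroid spectrin, with 2, 0 and 26, whereas its partner Sptbn1 had 15, 0 and 0. The alpha-actinin gene Actn4 had 1, 1 and 0 and the fascin gene Fscn1 0, 1 and 0.

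Nonmuscle myosin and tropomyosin genes were the actin list with the largest share in the Mat KO library. Without Myh9 it had 107, 0 and 97 counts, or shares of 51.2 (42.4 to 61.8) for WT 1 and 67.2 (55.1 to 81.9) for Mat KO. In the Mat KO library 4 genes gave the sum: Mylk, the myosin light chain kinase gene, with 1, 0 and 52, Myh10, the heavy chain of nonmuscle myosin IIB, with 1, 0 and 28, the tropomyosin gene Tpm3 with 9, 0 and 10, and Myo18a with 10, 0 and 7. In WT 1 the sum was spread over 16 of 23 genes, the most counted being Myo9b with 20, 0 and 0. The light chain gene Myl6, a partner of the Myh9 heavy chain, had 8, 0 and 0. Myh9 and Mylk, the leading genes of this group in the Mat KO library, thus had 61 and 52 counts where Myl6 had none.

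Membrane and adhesion linkers had 55, 0 and 20 counts. Ezr, the gene of ezrin, gave all 20 of the Mat KO library and had 0 in both WT libraries, and the integrin-linking talin gene Tln1 had 17, 0 and 0.

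**Figure D5:**
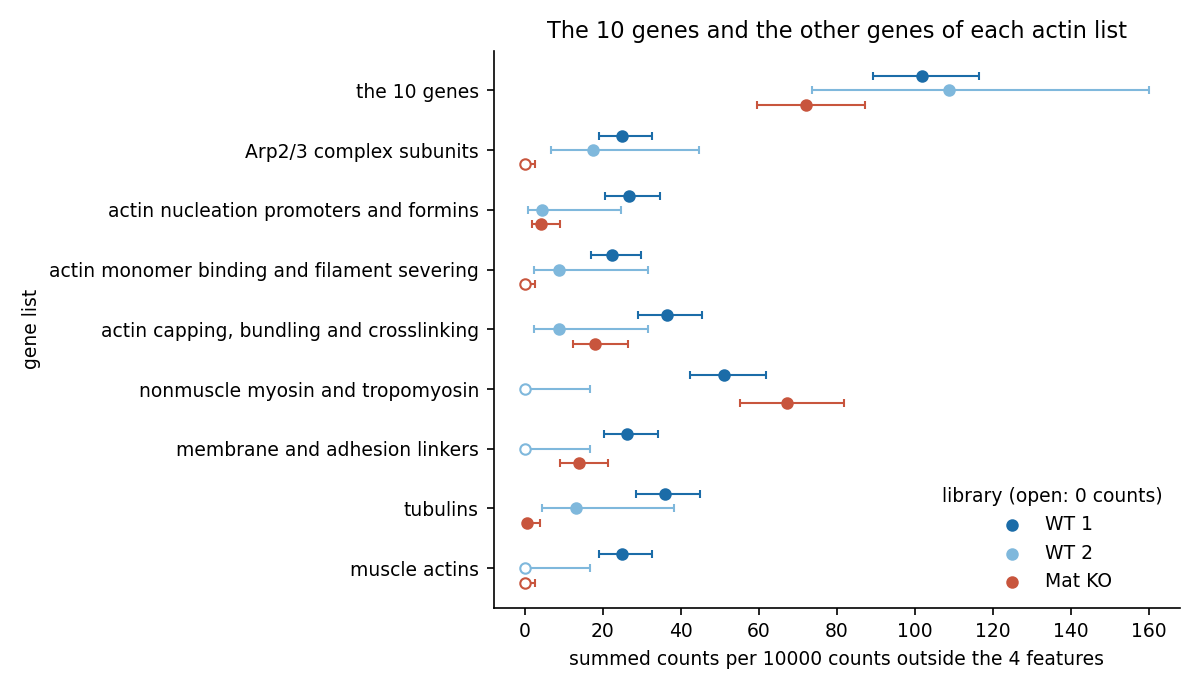
Summed share per 10000 counts outside the 4 features for the 10 genes and for the other genes of each list, by library. Open points mark 0 counts and bars are 95% Wilson intervals. On this scale the Mat KO library lies below WT 1 in every list shown except nonmuscle myosin and tropomyosin, where it holds 67.2 against 51.2.

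Tubulins, the subunits of the other main filament of the cytoskeleton, had 75, 3 and 1 counts from 8, 3 and 1 of 14 genes. Their shares were 35.9 (28.6 to 44.9), 13.0 (4.44 to 38.3) and 0.693 (0.122 to 3.92). Tubb5 led with 21, 0 and 0, followed by Tuba1b with 16, 1 and 0. Tuba1c and Tubb4b had 4, 1 and 0 and 5, 1 and 0, and the single count of the Mat KO library was in Tuba4a, with 11, 0 and 1. The tubulin share was thus near 0 in the Mat KO library, as was that of Tmsb4x, Pfn1 and Cfl1 together, also 0.693. The summed share of the 10 actin genes was 72.1 there, and Myh9 gave 58.7% and Actb 28.8% of it. Serum response factor, which drives many actin genes, had 5, 0 and 0 counts as Srf, and of its cofactors Elk3 had 0, 0 and 4 and Elk4 1, 0 and 0.

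Muscle actins were counted in WT 1 alone. Acta1, the skeletal muscle actin gene, had 48, 0 and 0 counts, more than the 44 of Actb in that library, and the cardiac actin gene Actc1 had 4, 0 and 0. Acta2 and Actg2 had 0 counts throughout. Over the last 1080 coding bases, Acta1 was identical to Actb at 85.8% and Actg1 to Actb at 89.0%, and 2.22% of the windows of Acta1 occurred in other genes. The skeletal muscle markers had 300, 0 and 0 counts, with 12 of 12 found in WT 1, where their share was 144 (128 to 161).

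Markers of other tissues moved with the libraries. The pancreatic acinar markers had shares of 0.478 (0.084 to 2.71), 60.8 (36.3 to 102) and 538 (502 to 576), and Ctrb1 led them with 0, 3 and 238 counts. The hepatocyte markers were led by Alb with 176, 14 and 0. With the muscle, acinar and hepatocyte markers taken out of the total, the summed shares of the 10 genes were 106, 111 and 76.2. This alternative, chosen after seeing the data, changed the total alone. Counts of the 10 genes that came from those tissues would stay in the sums, so it cannot show what part those tissues had. Pan-leukocyte markers, Coro1a among them, had 39, 0 and 8 counts, and the 8 of the Mat KO library were all in Ptprc, the CD45 gene. The markers of megakaryocytes and platelets, cells rich in Myh9 and Flna, had 36, 0 and 0 counts. The markers of smooth muscle, a tissue rich in Mylk, had 14, 0 and 0, with Acta2 and Myh11 at 0 in all libraries. The 14 were 10 of Des and 4 of Tagln. The part of any of these tissues or cells in the counts of the 10 genes was not tested.

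Detection in the other libraries was compared among genes with at least 5 counts in WT 1, a minimum chosen after the values were seen. Of the 9 genes of the set with that many, WT 2 had a count for 5 and Mat KO for 4. Among 1181 nuclear protein-coding genes the numbers were 100 (8.47%) and 112 (9.48%). Beyond the minimum, the 1181 genes were not matched to the set for their counts in WT 1. Pfn1, Actb and Tmsb4x ranked 18, 24 and 30 among the 4206 nuclear coding genes counted there. The set was also chosen with earlier results of these data known. The contrast thus cannot show that the set was detected more often than like genes. Genes whose profile over the 3 libraries was most like that of the summed set were sought among 26 genes with at least 100 counts in all. By the summed absolute difference of profiles scaled to 1, the nearest were the 7SL RNA genes Rn7s2 (0.057; 159, 19 and 67 counts) and Rn7s1 (0.078; 117, 12 and 46), the RNA of the signal recognition particle, whose near-identical copies make the division of counts between them uncertain. The mitochondrial gene mt-Cytb (0.248), Alb (0.510) and mt-Nd2 (0.529) followed at a distance.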

How the data were processed

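Polysomal RNA of 2 WT libraries and 1 Mat KO library was analysed, with groups taken from the genotype labels. Raw counts of reads per Ensembl gene were deposited by the authors, not normalized. Trimmomatic, HISAT2 2.1.0, HTSeq 0.11.2 and the build GRCm38 are named per the submitters' processing notes. The 5 HTSeq summary lines stayed out of all totals. For WT 1, WT 2 and Mat KO they held 84.9%, 88.2% and 90.0% of the recorded reads. The annotation release and strand setting of the counting are named in no source used here. Gene names, coordinates and transcripts came from GENCODE M21 (GRCm38), which matched 48349 of the 48795 identifiers. Genes were tested across all 437 that passed filterByExpr (minimum count 10, minimum total 15) in R 4.3.3. The test was edgeR's quasi-likelihood test (version 4.0.16), with TMM normalization, prior count 2 and a Benjamini-Hochberg threshold of 0.05. DESeq2 1.42.0 was an alternative. The edgeR script was tested on simulated data. Intervals are 95% Wilson intervals for shares and exact conditional intervals for ratios, from SciPy 1.17.1. The members, the lists and the alternatives were chosen with earlier results of these data known. All 301 listed symbols matched, 2 by an older symbol. Named genes are the 10, the 2 most counted genes of each actin list, each actin list gene with a count in WT 2 or the Mat KO library, and the 5 nearest profiles; 1 list is not reported here. Myo9b, Myl6, Elk4, Acta2, Actg2, Ptprc, Ctrb1, Myh11, Des, Tagln, Meg3 and Rian were named after their values were seen.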

Additional observations from a re-analysis of the deposited data

How the results depend on the processing

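No paired analysis was possible because no replicate number is given for Mat KO. The count of called genes stayed at 0 with other size factors, library totals, totals without the 4 features, no filter and DESeq2. With 1 WT library left out no test remained. Of the fitted log2 fold changes, Flna changed sign: it was 0.28 with median-of-ratios factors, 0.45 with totals without the 4 features, 0.37 in DESeq2, and -1.50 to 0.95 with a WT library left out. The other 37 values under alternatives kept their sign. Cfl1 had no value without WT 1, being at 0 in both libraries left. Myh9 was 0.60 without WT 2 and 4.29 without WT 1. Relative to the median of all tested genes, Flna was above 0 (0.29) with no filter alone. The cause was not tested. The summed share per 10000 gene-assigned counts was 33.0, 1.04 and 8.26 (WT 1, WT 2, Mat KO). Per 10000 nuclear protein-coding counts it was 205 and 129.7 (WT 2, Mat KO). Without the most counted gene it was 74.6 in WT 1 (without Pfn1) and 29.8 in the Mat KO library (without Myh9), where Myh9 alone carried most of the sum. At a minimum of 10 counts, 0 of the 10 genes were found in WT 2. Depth limits WT 2 most, with 2301 counts outside the 4 features.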

Other observations

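In the Mat KO library the median exon length was 6040 bases for the 4 genes of the set with a count and 2814 for the 6 at 0, although Tmsb4x (1371 bases), the shortest of the set, had a count and Lcp1 (9504 bases) had none. In WT 2 it was 2658 for the 5 with a count and 5115 for the 5 at 0, and in WT 1 2783 for the 9 with a count and 9504 for Lcp1. Over the other 139 actin genes the medians in the Mat KO library were 7732 for 11 and 4967 for 128, in WT 2 3276.5 for 8 and 5191 for 131, and in WT 1 5072 for 88 and 5390 for 51. Over all nuclear protein-coding genes other than Lars2 they were 6163 and 3477 for Mat KO, 4517 and 3505 for WT 2, and 4811.5 and 3260 for WT 1. Genes with a count also held more counts each in the Mat KO library: the median over such nuclear protein-coding genes was 9.5 counts there, 2 in WT 1 and 1 in WT 2, with 128 of 572, 1882 of 4206 and 267 of 378 at a single count. Whether the counts of Myh9, Mylk, Sptan1, Myh10 and Ezr in the Mat KO library come from many molecules or from few was not tested.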
